A study of Mus musculus with 8 samples.

Results

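The Tcl1 family of mouse oocytes was followed on 8 arrays as 6 genes, Tcl1, Tcl1b1, Tcl1b2, Tcl1b3, Tcl1b4 and Tcl1b5. The members were found by gene symbol in the authors' deposited table. Each symbol stood alone on 1 probe set, which gave 6 of the 29455 genes named singly on the 34472 probe sets, and all 6 lay above the background level described below. The BPS group was 4 arrays of oocyte RNA from female ICR mice aged 8 weeks that had received bisphenol S (BPS), an analogue of bisphenol A used in plastics and thermal paper, by oral gavage for 7 days, at a daily dose of 0.1 ng per g body weight. BPS was dissolved in 50% glycerol with 0.1% DMSO. The control group was 4 arrays of untreated females of the same strain and age, and no vehicle gavage is named for them. Both groups ate a diet without phyto-oestrogens, and every RNA sample had an integrity number over 8. The labels call the tissue oocytes, while the protocols describe the collection of ovaries. The growth protocol gives 4 animals per group for the transcriptomic work, but no label ties an animal to an array or says whether animals were pooled, so p-values measure the spread between these samples, which may be technical.

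Tcl1 encodes a small beta-barrel protein without enzymatic activity that binds the kinase AKT and promotes its activation. It was found through rearrangements that switch on the human gene in T cell leukaemia, and its normal expression is in immature lymphocytes, in pluripotent cells and in oocytes and early embryos. In mice, embryos from mothers that lack Tcl1 are impaired in the first cleavages. The mouse Tcl1b genes are tandem copies beside Tcl1, and human TCL1B also binds AKT. What each mouse Tcl1b copy does in the oocyte is less well known than the role of Tcl1.

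On GRCm38.p6 the 6 genes lie together on chromosome 12 within 75.7 kb. In order along the chromosome they are Tcl1b2, Tcl1b1, Tcl1b5, Tcl1b3, Tcl1b4 and Tcl1, with Tcl1b2 starting at 105147019 and Tcl1 ending at 105222737. The 5 Tcl1b genes are on the plus strand and Tcl1 is on the minus strand. The region around the annotated transcription start, from 150 bases before it to 50 bases after it, is shown for all 6 genes because it separates the tandem copies from Tcl1. The sequences are from RefSeq on GRCm38.p6, read 5′ to 3′ on the gene's strand, and the capitals mark a run of 25 bases that all 5 Tcl1b genes share:
Tcl1b2 (chr12:105146869-105147068, plus strand): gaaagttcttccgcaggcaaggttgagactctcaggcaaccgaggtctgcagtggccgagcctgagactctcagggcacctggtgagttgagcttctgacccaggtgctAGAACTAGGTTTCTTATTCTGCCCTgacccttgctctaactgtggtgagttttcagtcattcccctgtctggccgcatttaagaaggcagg
Tcl1b1 (chr12:105159554-105159753, plus strand): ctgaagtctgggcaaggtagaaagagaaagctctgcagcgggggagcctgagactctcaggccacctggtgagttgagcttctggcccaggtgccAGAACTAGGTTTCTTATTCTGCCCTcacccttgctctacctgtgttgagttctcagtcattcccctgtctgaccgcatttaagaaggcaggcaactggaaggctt
Tcl1b5 (chr12:105176194-105176393, plus strand): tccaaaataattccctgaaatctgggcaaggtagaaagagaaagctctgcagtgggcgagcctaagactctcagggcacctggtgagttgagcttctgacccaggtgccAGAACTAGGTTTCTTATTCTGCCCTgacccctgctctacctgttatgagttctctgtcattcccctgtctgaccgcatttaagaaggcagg
Tcl1b3 (chr12:105190895-105191094, plus strand): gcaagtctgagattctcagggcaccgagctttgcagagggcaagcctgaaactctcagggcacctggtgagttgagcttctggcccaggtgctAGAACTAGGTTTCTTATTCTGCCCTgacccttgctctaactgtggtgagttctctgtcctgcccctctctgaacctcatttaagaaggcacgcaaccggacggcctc
Tcl1b4 (chr12:105202245-105202444, plus strand): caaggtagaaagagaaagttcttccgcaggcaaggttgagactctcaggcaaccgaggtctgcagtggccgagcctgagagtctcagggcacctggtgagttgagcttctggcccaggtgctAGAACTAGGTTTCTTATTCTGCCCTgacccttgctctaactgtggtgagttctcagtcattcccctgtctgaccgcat
Tcl1 (chr12:105222688-105222887, minus strand): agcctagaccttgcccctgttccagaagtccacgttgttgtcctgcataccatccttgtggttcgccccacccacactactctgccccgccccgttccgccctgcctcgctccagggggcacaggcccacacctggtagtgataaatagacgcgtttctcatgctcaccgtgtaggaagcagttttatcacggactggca

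The Tcl1b copies had nearly the same sequence at their starts. Over the whole RefSeq windows, which run from 250 bases before to 50 after the start, the 10 pairs of Tcl1b genes were 90.9% to 98.6% identical over 206 to 287 aligned bases, with the highest identity between Tcl1b2 and Tcl1b4. The Tcl1 window was 60.8% to 69.9% identical to those of the Tcl1b genes over 216 to 255 aligned bases. The run in capitals was found in 5 of 32851 RefSeq promoter windows of the mouse, those of the 5 Tcl1b genes. Its first base lay at -41 in Tcl1b2, -55 in Tcl1b1, -41 in Tcl1b5, -57 in Tcl1b3 and -28 in Tcl1b4, counted from the annotated start. Short motifs were searched on both strands. TATAAA was in no member's window and in 13.6% of all windows. The letters TTTAAG were in 4 windows, those of Tcl1b1, Tcl1b2, Tcl1b3 and Tcl1b5, and in 13.5% of all windows. The Tcl1b4 window stops inside the matching stretch, so whether Tcl1b4 has these letters just after it was not read. CANNTG, the general E-box pattern, was in all 6 and in 72.3% of all windows. TAATTA and TAATTG were in no member's window, against 5.29% and 8.00% of all windows, and CACGTG was in none, against 7.15%. Transcript and probe sequences were not analysed here, so how far each probe set separates these similar copies is uncertain.

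All signals were RMA estimates in log2 units, and each difference was taken as BPS minus control in those units. A ± gives the SD of a group or the SE of a difference. Background was set at 4.53, below which 95% of the mean signals fell among 1722 probe sets for Y-linked genes and odorant and vomeronasal receptors. Of 15 oocyte markers 14 lay above it, among them Zp3, a zona pellucida protein, at 10.98 ± 0.03 in BPS and 10.95 ± 0.07 in control arrays (SD, n = 4 each). Gdf9, an oocyte growth factor, stood at 9.82 ± 0.04 in BPS and 9.86 ± 0.08 in control arrays (SD, n = 4 each). None of the 15 passed in limma without a block. Figla, a transcription factor of the oocyte, averaged 5.54 ± 0.34 in BPS and 5.11 ± 0.30 in control arrays (SD, n = 4 each), and it passed with the replicate number as a block (limma adjusted p = 0.0368), where 1.99% of all probe sets did. Zar1, a maternal RNA-binding protein, averaged 10.81 ± 0.22 in BPS and 11.19 ± 0.23 in control arrays (SD, n = 4 each), and it passed with the 2 series of array names described below as a block (limma adjusted p = 0.0299), where 3.47% did. Of 10 granulosa cell markers 2 lay above background, Inha and Nr5a2, and the defining markers Amh and Fshr did not. None of 8 theca and stroma markers and none of 3 erythroid markers did. Because lymphocytes and pluripotent cells also express Tcl1, their markers were read too. Of 6 lymphocyte markers 2 lay above background, Ms4a1 and Trbc2, while Ptprc, Cd79a and Cd3e were among those that did not. None of 5 pluripotent and cleavage-stage markers, which include Nanog and Zscan4c, lay above it. The mean level of the granulosa list ran from 4.51 to 4.80 over the BPS arrays and from 4.40 to 4.54 over the control arrays, and that of the lymphocyte list from 4.50 to 4.79 over the BPS arrays and from 4.47 to 4.58 over the control arrays. Their part in the values below was not tested. In RNA of many cells, fewer cells of a type and less RNA per cell cannot be told apart.

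Tcl1 had signals at the top of the measured range and did not pass the test between the groups. Its values were 11.20, 11.19, 11.25 and 11.25 in BPS replicates 1 to 4, against 11.07, 11.10, 11.21 and 10.98 in control replicates 1 to 4. The BPS values were tightly grouped, and the only control array among them was replicate 3, so the groups overlapped. In 4 of 4 same-numbered pairs the BPS array was the higher. The means were 11.22 ± 0.03 in BPS and 11.09 ± 0.09 in control arrays (SD, n = 4 each). The difference was 0.13 ± 0.06 (SE), with a 95% interval of 0.004 to 0.261, or 1.10-fold, and it did not pass (limma unadjusted p = 0.0447, adjusted p = 0.440). The median difference of all probe sets above background was 0.12. After quantile normalization that median was 0.004, while the Tcl1 difference was 0.15. Over the 14 oocyte markers above background the median difference of the deposited values was -0.006. Whether the Tcl1 difference is part of a shift between the arrays was not tested. Within the number-named arrays of the authors' deposited table, 2 per group, the Tcl1 difference was 0.11, and within the letter-named arrays, also 2 per group, it was 0.155.

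Tcl1 lay at or near the highest value of every array. On each of the 4 BPS arrays the Tcl1 value was the highest of the array, 0 log2 units below the maximum. On the control arrays it lay 0.26, 0.35, 0.03 and 0.15 below the maximum in replicates 1 to 4. The maxima themselves ran from 11.19 to 11.25 on BPS arrays and from 11.13 to 11.45 on control arrays. Quantile normalization, which gives the highest probe set of every array the same value, set Tcl1 to 11.255 on all 4 BPS arrays, against 11.095, 11.095, 11.1825 and 11.05 on the control arrays. The spread of the BPS group is then 0 by construction, and the difference of 0.15 ± 0.04 (SE) did not pass either (limma unadjusted p = 0.00787, adjusted p = 0.332). Whether signals near the maximum are compressed was not tested.

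Tcl1b1 was also near the maximum and did not separate the groups. Its values were 11.01, 10.99, 11.09 and 11.23 in BPS replicates 1 to 4, against 11.04, 11.02, 11.24 and 11.08 in control replicates 1 to 4. BPS replicate 4 and control replicate 3 were the high arrays, and in control replicate 3 Tcl1b1 held the maximum of the array. The means were 11.08 ± 0.11 in BPS and 11.10 ± 0.10 in control arrays (SD, n = 4 each). The difference was -0.015 ± 0.07 (SE), with a 95% interval from -0.18 to 0.15 (limma adjusted p = 0.949). It was -0.03 within the number-named and 0 within the letter-named arrays.

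Tcl1b2 had a narrow spread at a lower signal. Its values were 8.49, 8.44, 8.63 and 8.32 in BPS replicates 1 to 4, against 8.29, 8.40, 8.50 and 8.21 in control replicates 1 to 4. In both groups replicate 3 was the highest and replicate 4 the lowest, and in every same-numbered pair the BPS array was the higher, while the groups as a whole overlapped. The means were 8.47 ± 0.13 in BPS and 8.35 ± 0.13 in control arrays (SD, n = 4 each). The difference of 0.12 ± 0.09 (SE), with a 95% interval from -0.08 to 0.32, did not pass (limma adjusted p = 0.603). It was 0.12 within the number-named and 0.12 within the letter-named arrays.

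**Figure D1:**
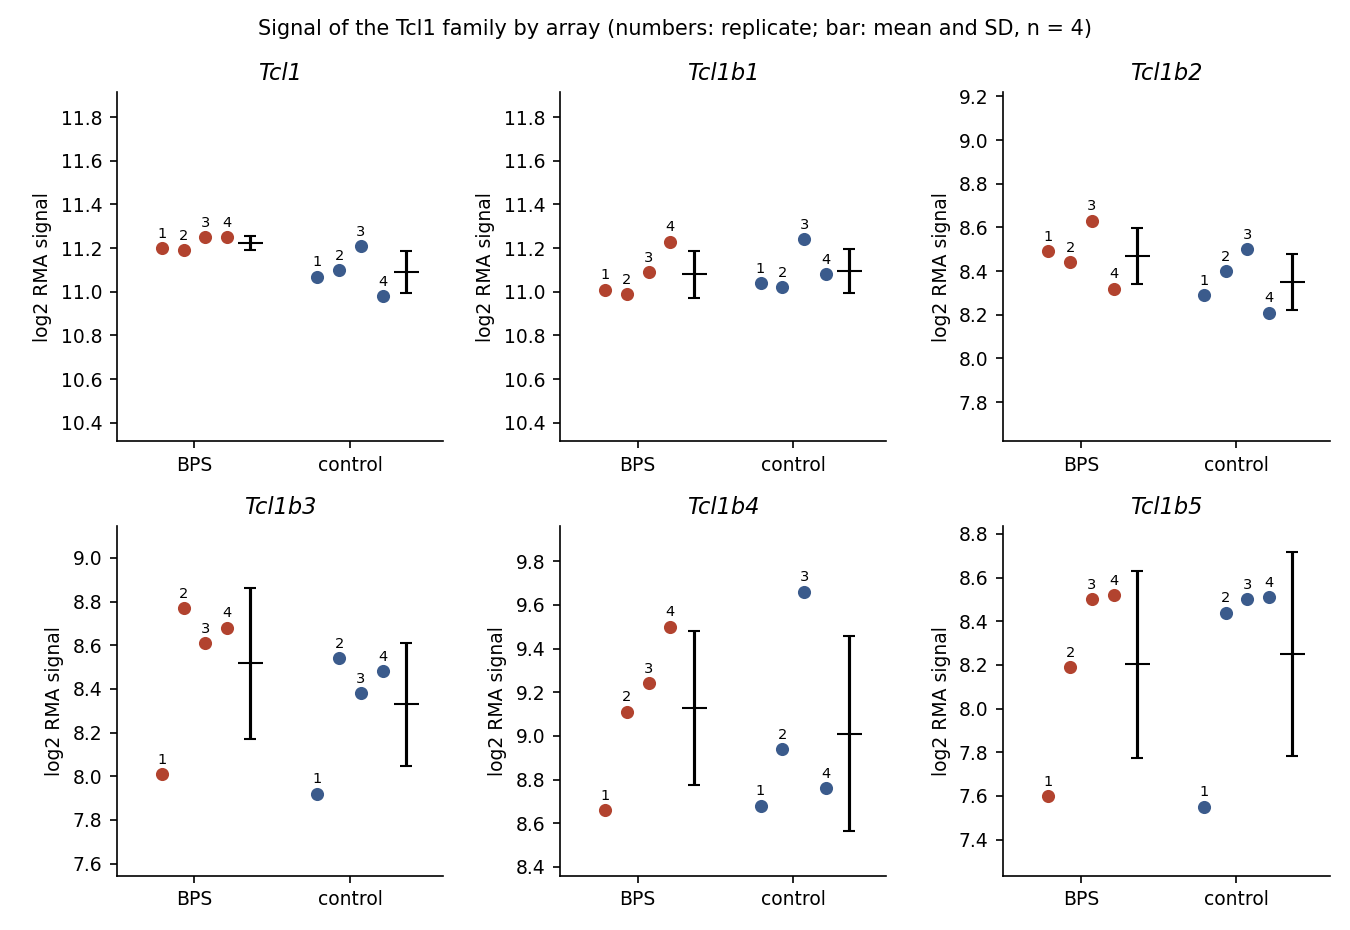
Log2 RMA signal of the 6 Tcl1 family genes on the 4 BPS and 4 control arrays, 1 panel per gene, each axis covering the same span. Points carry the replicate number and bars show the mean and SD (n = 4). Tcl1 sits between 10.98 and 11.25 on all arrays, while replicate 1 of both groups is the low array of Tcl1b3 and Tcl1b5.

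Tcl1b3 varied more between arrays than between groups. Its values were 8.01, 8.77, 8.61 and 8.68 in BPS replicates 1 to 4, against 7.92, 8.54, 8.38 and 8.48 in control replicates 1 to 4. Replicate 1 was the low array in both groups, and the other 6 arrays lay within 8.38 to 8.77. The means were 8.52 ± 0.34 in BPS and 8.33 ± 0.28 in control arrays (SD, n = 4 each). The difference of 0.19 ± 0.19 (SE), with a 95% interval from -0.26 to 0.63, did not pass (limma adjusted p = 0.726). It was 0.16 within the number-named and 0.215 within the letter-named arrays.

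Tcl1b4 had the widest range of the 6 genes, 8.66 to 9.66. Its values were 8.66, 9.11, 9.24 and 9.5 in BPS replicates 1 to 4, against 8.68, 8.94, 9.66 and 8.76 in control replicates 1 to 4. Control replicate 3 was the highest array of all, and replicate 1 was the lowest array of both groups. The means were 9.13 ± 0.35 in BPS and 9.01 ± 0.45 in control arrays (SD, n = 4 each), with a difference of 0.12 ± 0.25 (SE) and a 95% interval from -0.45 to 0.68 (limma adjusted p = 0.873). Without control replicate 3 the difference was 0.33, and it did not pass (limma adjusted p = 0.558). Without BPS replicate 4 it was -0.01, also without passing (limma adjusted p = 0.995). The number-named arrays averaged 8.885 in BPS and 8.81 in controls, and the letter-named arrays 9.37 and 9.21. The difference was 0.075 within the number-named and 0.16 within the letter-named arrays.

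Tcl1b5 was split by array rather than by group. Its values were 7.60, 8.19, 8.50 and 8.52 in BPS replicates 1 to 4, against 7.55, 8.44, 8.50 and 8.51 in control replicates 1 to 4. Replicate 1 of both groups lay at least 0.59 below every other array, and replicates 3 and 4 of both groups lay within 0.02 of each other. The means were 8.20 ± 0.43 in BPS and 8.25 ± 0.47 in control arrays (SD, n = 4 each). The difference of -0.0475 ± 0.27 (SE), with a 95% interval from -0.68 to 0.58, did not pass (limma adjusted p = 0.959). It became -0.28 without control replicate 1 and 0.15 without BPS replicate 1. The number-named arrays averaged 7.895 in BPS and 7.995 in controls, and the letter-named arrays 8.51 and 8.505. The difference was -0.1 within the number-named and 0.005 within the letter-named arrays.

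Across the family no member passed. In limma without a block 0 of the 6 genes passed the adjusted threshold of 0.05, where 0.0087% of all 34472 probe sets did. At an unadjusted p under 0.05 it was 1 of 6, Tcl1, where 11.1% of all probe sets were. The BPS and control values overlapped in all 6 genes, while they did not overlap in 5.80% of all probe sets. The mean was higher in BPS for 4 genes and lower for 2, Tcl1b1 and Tcl1b5, with a median difference of 0.12. Over the array, 71% of probe sets above background had a positive difference. The upper ends of the 95% intervals were 1.20-fold for Tcl1 and 1.61-fold for Tcl1b4.

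BPS and control arrays deviated together within replicates 1 and 2 and within replicates 3 and 4, and oppositely between these sets. BPS replicates 2, 3 and 4 each correlated more with a control array of another number. In all 6 genes the means of the number-named arrays matched replicates 1 and 2. Those of the letter-named arrays matched replicates 3 and 4. The replicate numbers and the series of array names are thus not separate groupings of the arrays. With the replicate number as a block the differences stayed as they were by construction, while their errors became smaller for part of the family. The residual SD of Tcl1b3 was 0.05 with the block and 0.31 without it, that of Tcl1b5 0.10 and 0.45, and that of Tcl1b2 0.05 and 0.13. For Tcl1b4 it was 0.34 and 0.40, for Tcl1b1 0.09 and 0.10, and for Tcl1 0.07 and 0.07. With the block 0 of 6 genes passed the adjusted threshold, where 1.99% of all probe sets did, and 3 of 6, Tcl1, Tcl1b2 and Tcl1b3, had an unadjusted p under 0.05, where 20.1% did. The smallest adjusted p in that fit was that of Tcl1b3 (0.19 ± 0.04 SE, limma unadjusted p = 0.00711, adjusted p = 0.103), which was higher in BPS in 4 of 4 same-numbered pairs. With the number-named and letter-named arrays as a block 0 of 6 passed, where 3.47% of all probe sets did, with limma adjusted p from 0.275 to 0.931, and 1 of 6 had an unadjusted p under 0.05, where 18.1% did.

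**Figure D2:**
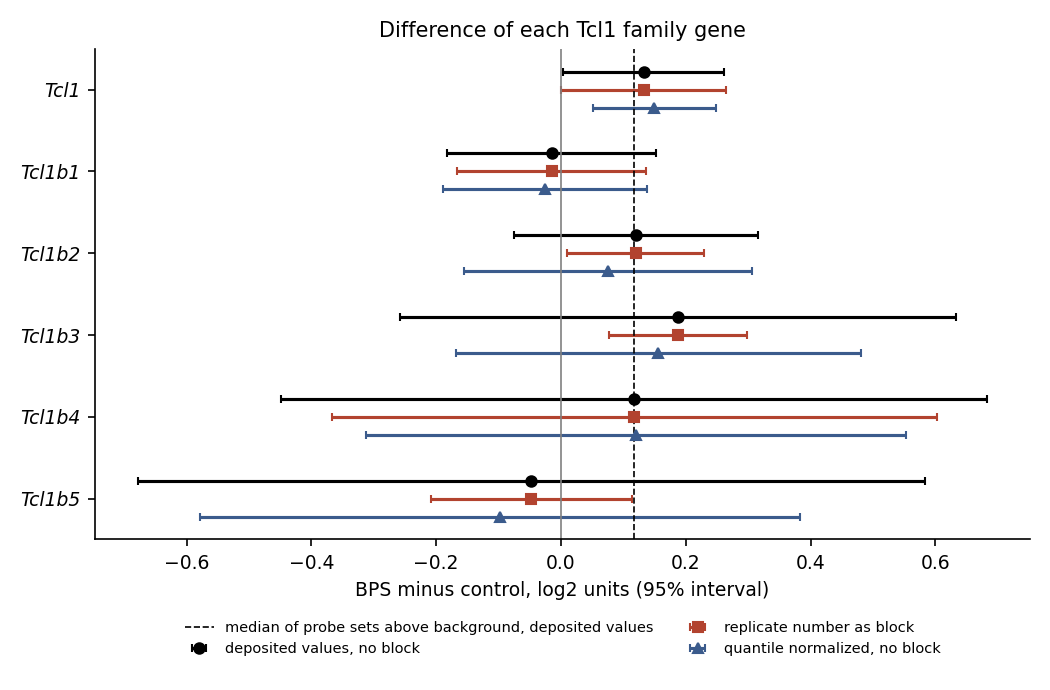
BPS minus control for each Tcl1 family gene in log2 units with 95% intervals, for the deposited values without a block, with the replicate number as a block, and after quantile normalization. The dashed line marks 0.12, the median difference of probe sets above background. The interval of Tcl1b3 narrows with the block, and no gene passed the adjusted threshold in any of the 3 fits.

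The spread between arrays differed within the family. The residual SD without a block was 0.22 at the median of the 10236 probe sets above background. That of Tcl1 lay at percentile 2.39 of these probe sets and that of Tcl1b1 at percentile 8.83, both at or near the highest value of each array, where compression was not tested. Tcl1b2 lay at percentile 15.9, Tcl1b3 at 75.4, Tcl1b4 at 87.8 and Tcl1b5 at 91.9. Tcl1b2 and Tcl1b5, with means over the 8 arrays of 8.41 and 8.23, thus had residual SDs of 0.13 and 0.45. The gene-centred profiles of Tcl1b3 and Tcl1b5 differed by a root mean square of 0.22 over the 8 arrays, less than those of any other pair with Tcl1b3, Tcl1b4 or Tcl1b5 in it, while Tcl1 and Tcl1b2 differed by 0.08.

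The authors' deposited table gave the same picture with other averages. Its averages of Tcl1b4 were 9.17 in BPS and 8.80 in control arrays, 0.37 apart, where the arithmetic means were 9.13 and 9.01. For Tcl1b5 the deposited averages were 8.39 and 8.48 and the arithmetic means 8.20 and 8.25. Over all probe sets, 99.8% of the deposited BPS averages and 99.9% of the deposited control averages equalled a 1-step Tukey biweight of the 4 signals to within 0.011, where 44.3% and 44.7% equalled the arithmetic mean. A biweight gives little weight to a value far from the others, such as control replicate 3 of Tcl1b4 or replicate 1 of Tcl1b5. The authors' deposited table listed p-values of 0.119 for Tcl1, 0.887 for Tcl1b1, 0.289 for Tcl1b2, 0.445 for Tcl1b3, 0.750 for Tcl1b4 and 0.943 for Tcl1b5, and the lowest FDR among them was 0.864.

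High signal on this stretch of chromosome 12 was found over the family but not over all of its surroundings. Of 15 annotated genes within 250 kb of the cluster, 6 had a probe set of their own, and 2 of these lay above background. Glrx5, a mitochondrial glutaredoxin of iron-sulphur cluster assembly whose gene ends 106 kb before Tcl1b2, averaged 8.53 ± 0.34 in BPS and 8.46 ± 0.83 in control arrays (SD, n = 4 each). Control replicate 4 stood at 7.22 for Glrx5 and the other control arrays between 8.77 and 8.93. Snhg10, a non-coding RNA gene beside Glrx5, averaged 5.37 ± 0.23 in BPS and 5.04 ± 0.45 in control arrays (SD, n = 4 each). On the Tcl1 side the nearest measured gene, Tunar, a non-coding RNA gene 114 kb away, lay below background at 4.15 ± 0.11 in BPS and 4.12 ± 0.08 in control arrays (SD, n = 4 each), as did Gm2721 and D430019H16Rik, and so did Syne3, which codes for the nuclear envelope protein nesprin-3, on the other side. No neighbour passed in limma, with a lowest adjusted p of 0.507 and 0 at an unadjusted p under 0.05.

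**Figure D3:**
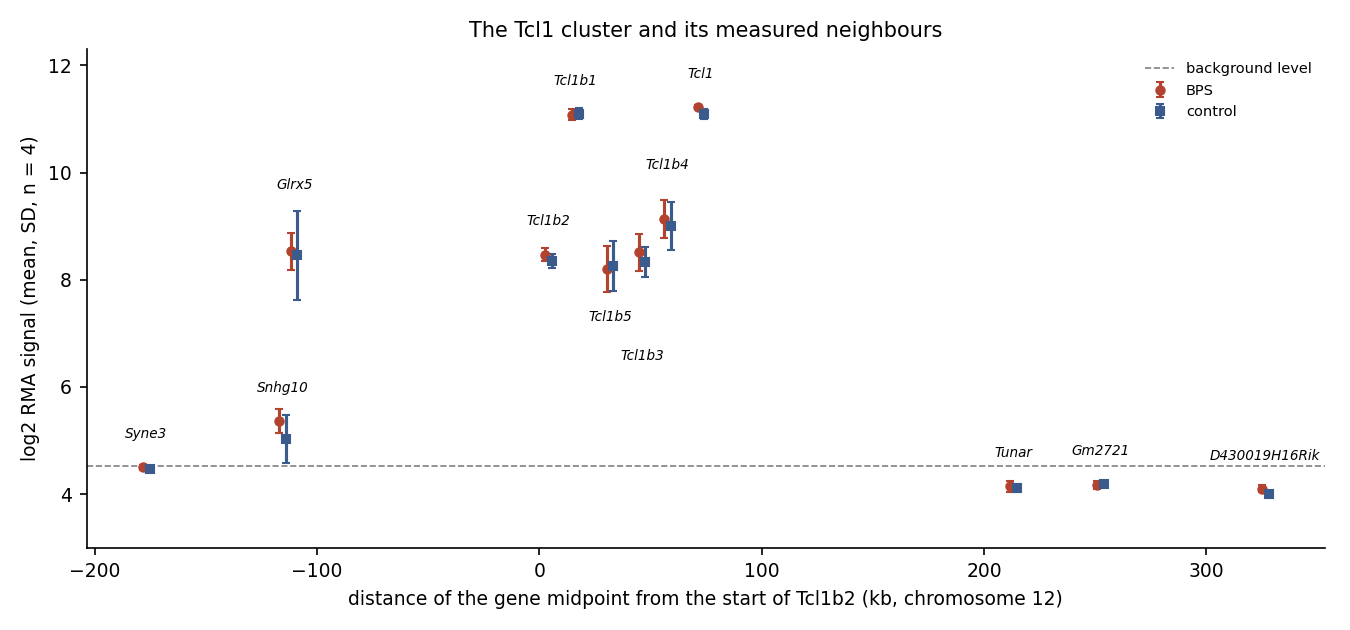
Log2 RMA signal (mean and SD, n = 4) of the Tcl1 family and of its 6 measured neighbours in BPS and control arrays, plotted against the distance of the gene's midpoint from the start of Tcl1b2 in kb. The dashed line is the background level of 4.53. All 6 Tcl1 family genes lie above 8 in mean signal, and 4 of the neighbours lie below background.

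The partner of Tcl1 proteins is AKT, and the AKT genes Akt1 and Akt2 were measured above background. Akt1 had values of 5.11, 5.27, 5.51 and 5.18 in BPS replicates 1 to 4, against 4.88, 5.04, 5.08 and 4.91 in control replicates 1 to 4. All BPS values lay above all control values, as they did in 4.13% of all probe sets. The difference of 0.29 ± 0.09 (SE) did not pass (limma unadjusted p = 0.0138, adjusted p = 0.389). In limma the replicate block gave an adjusted p of 0.0636 and the array-name series block 0.145. Quantile normalization gave a difference of 0.16 (limma adjusted p = 0.489). Akt2 averaged 6.94 ± 0.08 in BPS and 6.91 ± 0.10 in control arrays (SD, n = 4 each), a difference of 0.025 ± 0.06 (SE, limma adjusted p = 0.898). The family relative Mtcp1 shares its probe set with Cmc4 on this array, so no value is given for it.

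Of 34 listed genes of the AKT pathway 33 had a probe set of their own, and 21 lay above background. In limma 0 of 33 passed the adjusted threshold. At an unadjusted p under 0.05 there were 5, all higher in BPS (15.2%), where 7.99% of all probe sets were higher at that p. Of these 5, Akt1, Gsk3b and Rictor lay above background and the others below it. All probe sets include many below background, so 15.2% and 7.99% compare sets of unlike signal level. In a limma fit of the 10236 probe sets above background alone, 1343 were higher at that p. The groups did not overlap in 4 of 33 (12.1%), all higher in BPS, where 4.13% of all probe sets were. That share among probe sets above background is not given here, so the 2 percentages compare sets of unlike signal level. The median difference was 0.06 over the 33 genes, against 0.025 over all probe sets, and 0.06 over the 21 genes above background, against 0.12 over all probe sets above background. Over the 33 genes it was -0.03 after quantile normalization. Gsk3b, the kinase GSK3-beta that AKT phosphorylates and inhibits, averaged 6.43 ± 0.04 in BPS and 6.12 ± 0.12 in control arrays (SD, n = 4 each), a difference of 0.31 ± 0.07 (SE, limma unadjusted p = 0.00157, adjusted p = 0.298). Rictor, a subunit of the mTORC2 kinase that phosphorylates AKT, averaged 7.04 ± 0.09 in BPS and 6.69 ± 0.16 in control arrays (SD, n = 4 each), a difference of 0.35 ± 0.09 (SE, limma unadjusted p = 0.00352, adjusted p = 0.352). With the replicate block 0 of 33 passed, where 1.99% of all probe sets did, and with the number-named and letter-named arrays as a block 1 did, Inpp5d (limma adjusted p = 0.0288), a phosphatase gene below background in mean signal, where 3.47% of all probe sets passed.

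**Figure D4:**
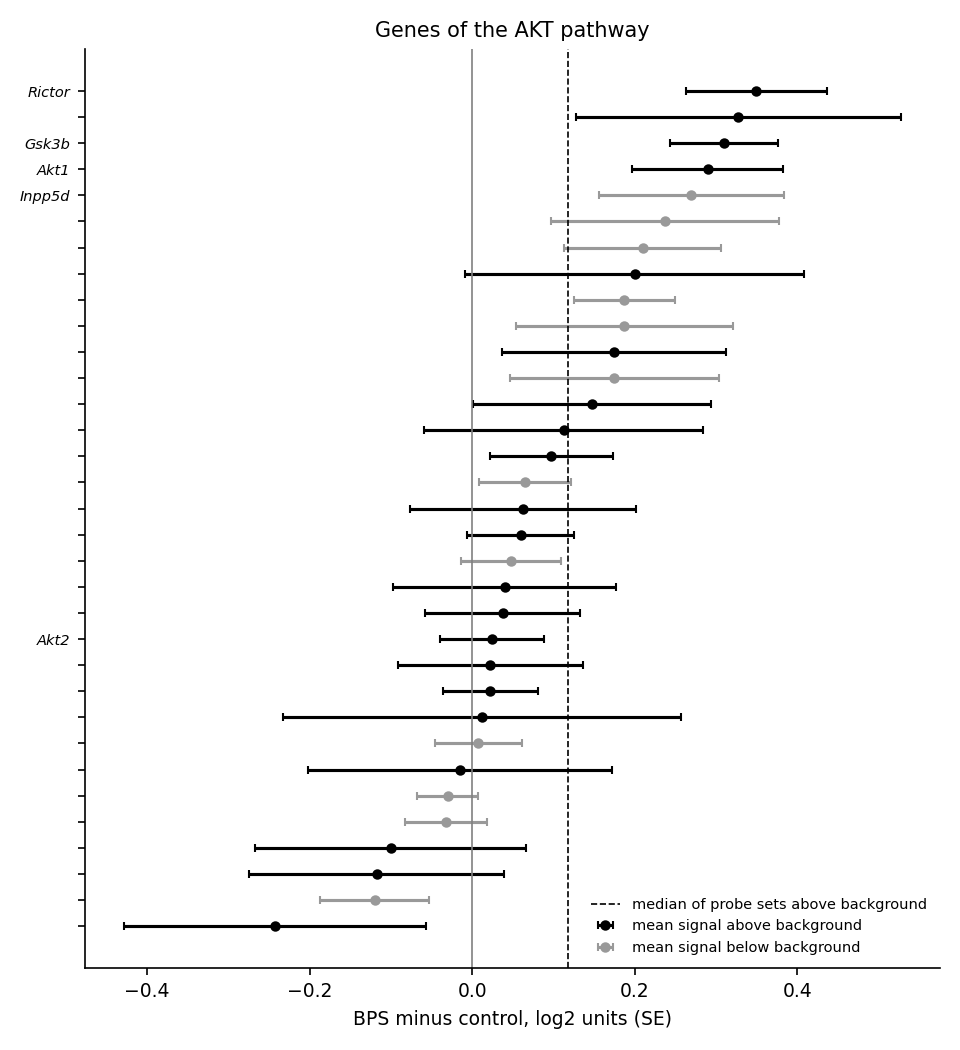
BPS minus control in log2 units with SE for the 33 measured genes of the AKT pathway, ordered by the difference, with names at the genes described in the text. Black points are genes above background in mean signal and grey points those below it, and the dashed line marks 0.12, the median difference of probe sets above background. Rictor, Gsk3b and Akt1 lie near 0.3, and no gene passed the adjusted threshold without a block.

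Other proteins that bind TCL1 in human cells gave values without a call. Of 9 genes 5 lay above background, and in limma 0 passed, with 0 at an unadjusted p under 0.05. Pnpt1, the mitochondrial polynucleotide phosphorylase, differed by 0.34 ± 0.17 (SE), Ep300, the acetyltransferase p300, by -0.18 ± 0.24, and Nfkbia, an inhibitor of NF-kappaB, by -0.17 ± 0.31. The list had 3 positive and 6 negative differences with a median of -0.04. The 8 pluripotency transcription factor genes, which include Pou5f1, a regulator of Tcl1 in mouse embryonic stem cells, all lay below background, with Pou5f1 at 4.16 ± 0.07 in BPS and 4.13 ± 0.05 in control arrays (SD, n = 4 each).

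The genes most like Tcl1 over the 8 arrays were sought among 7298 genes above background by the root mean square difference between gene-centred profiles. The closest 5 were Mthfsl (0.03), Mastl (0.03), Nfic (0.03), Btg4 (0.04) and Tgfb2 (0.04). Nfic lay barely above background, with a mean over the 8 arrays of 4.55 and a control mean of 4.47. Mastl codes for the Greatwall kinase, which holds a phosphatase in check at entry into M phase, and Btg4 for an adaptor of the deadenylase that removes maternal mRNA. Btg4 averaged 10.43 in BPS and 10.30 in control arrays and Mastl 8.54 and 8.37, and their limma adjusted p were 0.421 and 0.392. For the mean profile of the Tcl1b genes the closest were Cmc2 (0.05), Cdca5 (0.06), Ttc17 (0.06) and Psmd10 (0.06). The Tcl1b genes did not share a profile, since their pairs differed by 0.15 to 0.40. Tcl1b1 and Tcl1b2 were closer to Tcl1 (0.10 and 0.08) than to any Tcl1b gene, so closeness to the mean is not closeness to each copy. Cdca5 codes for sororin, which protects sister chromatid cohesion. The Tcl1b mean profile ranged over 0.56 and the Tcl1 profile over 0.27.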

How the data were processed

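Gene expression was measured on 8 MoGene 2.1 ST arrays, 4 BPS and 4 control. Per the file headers, the authors summarised probe sets at gene level with RMA and annotated them with NetAffx release 36 on mm10, and the deposited signals are log2 values with 2 decimals. Transcriptome Analysis Console was the tool, per the submitters' processing notes. The authors' deposited table also holds group averages (log2), p-values, FDR values, SDs (a score of spread here) and a signed fold score, control over BPS from a test that the sources used here do not name. Array medians ran from 4.15 to 4.21, correlations between arrays from 0.941 to 0.982, and no array repeated another. The number of arrays limits the precision.

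BPS minus control was fitted over all 34472 probe sets in limma 3.58.1 (lmFit, then eBayes; R 4.3.3), two-sided, with Benjamini-Hochberg adjustment and a threshold of 0.05. The fit was also run on simulated data. These had independent probe sets, no deviations shared by arrays, and differences larger than those of the members. That run thus does not bear on the results of the members. Of the probe sets 29971 had 1 symbol, 1902 several and 2599 none, and the brightest single-symbol probe set stood for a gene. Python 3.11.15, pandas 2.3.3 and Biopython 1.88 made the tables and alignments. The members and gene lists were chosen with earlier results of these data known. Named genes were the members, the 3 genes above background with the smallest p in the AKT and partner lists, Akt1 and Akt2, neighbours within 250 kb, the 5 closest profiles of Tcl1 and of the Tcl1b mean, and the markers Zp3, Gdf9, Amh and Fshr. Inpp5d, Pou5f1, Figla, Zar1 and the other markers were named after their values were seen. Some genes that the rule names are not reported here.

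Sample titles carry the numbers 1 to 4 in each group. After subtraction of group means, BPS and control arrays of the same number correlated at 0.519, 0.383, 0.173 and 0.362 across probe sets brighter than the median. The number was taken as a pairing, although the labels do not say what same-numbered arrays share. Some arrays of unlike number correlated more than those of the same number. These were BPS 2 with control 1 (0.454), BPS 3 with control 4 (0.493) and BPS 4 with control 3 (0.437). BPS 1 and 2 correlated negatively with control 3 and 4, from -0.442 to -0.268. BPS 3 and 4 correlated negatively with control 1 and 2, from -0.553 to -0.332. The correlations thus do not single out the same-numbered pairs, and they split replicates 1 and 2 from replicates 3 and 4.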

Additional observations from a re-analysis of the deposited data

Results flagged for a closer look

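In 68 groups of 4 arrays, those of the genes named by rule, 5 held an array whose gap to the others exceeded Dixon's 95% critical value for the share of the group's range, and chance flags about 1 in 20 groups. For Tcl1b5 the lowest control array, replicate 1 at 7.55, stood apart from the others at 8.44 to 8.51, with a gap of 0.927 of the range. BPS replicate 1 of Tcl1b5, at 7.60, was low as well, but the BPS group did not pass this criterion. For Akt2 the lowest BPS array, replicate 4 at 6.82, stood below values of 6.97 to 6.98 (0.938 of the range). For Glrx5 the lowest control array, replicate 4 at 7.22, stood below values of 8.77 to 8.93 (0.906 of the range). For Tunar, which is below background, the lowest BPS array, replicate 3 at 3.99, stood below values of 4.18 to 4.21 (0.864 of the range). For Btg4, among the genes closest to Tcl1 in profile, the highest BPS array stood apart from the others by 0.917 of the range.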

How the results depend on the processing

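Of 90 results, the 6 genes under 15 alternatives each, none passed the adjusted threshold, with limma adjusted p from 0.103 to 0.995. The 15 were 7 other settings and 8 that left out 1 array. The 7 other settings were quantile normalization, median centring, the filters at the median level and at background, an intensity trend, the replicate block and the array-name series block. The filters, the trend and the blocks leave each difference as it is by construction. Only quantile normalization and median centring could change a direction, and under them no direction changed. When 1 array was left out, the difference ran from 0.10 to 0.17 for Tcl1, from -0.065 to 0.0333 for Tcl1b1, from 0.07 to 0.17 for Tcl1b2, from 0.05 to 0.36 for Tcl1b3, from -0.00667 to 0.33 for Tcl1b4 and from -0.28 to 0.15 for Tcl1b5. The sign thus changed for Tcl1b1, Tcl1b4 and Tcl1b5. The 3 probe sets called over the whole array became 0 after quantile normalization (3753 at an unadjusted p under 0.05) and with an intensity trend (3950), 1 after median centring, 685 with the replicate block and 1195 with the array-name series block, and lay between 0 and 3 with any 1 array left out. It was 0 without any 1 control array or without BPS replicate 4. The AKT pathway median of 0.06 became -0.0264 after quantile normalization and lay between 0.03 and 0.11 with any 1 array left out. Each member had 1 probe set, so the alternative that averages several was not run. The cause of these changes was not tested.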

Other observations

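The low replicate 1 arrays of the Tcl1b genes were set beside all probe sets above background after their values had been seen, as a description. In 1232 of 10236 probe sets (12.0%) the lowest 2 arrays were BPS replicate 1 and control replicate 1, as they were in Tcl1b3, Tcl1b4 and Tcl1b5. The gap to the lowest of the other 6 arrays was at least 0.3 in 97 probe sets (0.948%), and it was 0.59 in Tcl1b5, 0.37 in Tcl1b3 and 0.08 in Tcl1b4. For replicates 2, 3 and 4 the same-numbered arrays were the lowest 2 in 2.74%, 1.07% and 2.35% of probe sets. After quantile normalization Tcl1b5 still stood at 7.80 in BPS replicate 1 and 7.69 in control replicate 1, with the other arrays at 8.10 to 8.41 in BPS and at 8.43 to 8.52 in controls. What the replicate 1 arrays share was not tested.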
